A study of Caenorhabditis elegans with 12 samples.

Results

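This report describes 60 C. elegans loci that lost nearly all of their antisense small RNA without RDE-4 and were not raised when insulin/IGF-1 signaling (IIS) was reduced. They were chosen from 32238 annotated rows by their own counts. Levels are CPM, the usual scaling of a count by the total antisense counts of its library, averaged over 3 libraries a strain. A locus had to be at least 300 bases wide with a mean of at least 10 CPM in WT. Its rde-4 mean was at most 12.5% of WT, its age-1; rde-4 mean at most 12.5% of age-1, and its age-1 mean under 1.5 times WT. Of 1797 rows with enough width and WT counts, 217 met both RDE-4 limits and 83 of these also met the age-1 limit. Sperm gene families, F-box genes, lincRNA genes and a list of 14 further loci given by name are not members, which took out 23 of the 83. All 12 libraries were used in the choice, so levels in rde-4 against WT, in age-1; rde-4 against age-1 and in age-1 against WT are given as a description and not as tests.

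The strains were the double mutant age-1(hx546); rde-4(ne301), the single mutants age-1(hx546) and rde-4(ne301), and N2 as WT, with 3 populations each. The animals were whole hermaphrodites at 20 °C, collected on the first day of adulthood while no embryos could be seen. Both single-mutant alleles are present together in the double mutant, and bulk animals do not separate a change in siRNA per cell from a change in the number of germ cells that make it.

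RDE-4 binds double-stranded RNA and hands it to Dicer, which cuts it into siRNAs. In the endogenous pathways these primary siRNAs load into ERGO-1, the Argonaute of oocytes and embryos, or into ALG-3/4, the Argonautes of developing sperm, and guide RNA-dependent RNA polymerases to make secondary siRNAs antisense to the target. Per the study, its libraries were enriched for 5′ monophosphate small RNAs cut by Dicer, in particular primary siRNAs. The antisense counts below are therefore not to be read as secondary siRNAs. ERGO-1 targets are known to include recently duplicated genes and pseudogenes, while ALG-3/4 targets are mostly genes used in spermatogenesis. AGE-1 is the phosphoinositide 3-kinase of the IIS pathway, which holds the transcription factor DAF-16/FOXO out of the nucleus.

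The libraries held 2449703 to 3590005 antisense counts, and the 10 most abundant rows took 61.7% to 81.3% of each. Scaling matters here. TMM factors, which set libraries level on their middle range of rows, lay between 0.433 and 0.600 in age-1; rde-4, 1.13 and 1.73 in age-1, 0.945 and 1.16 in rde-4, and 0.987 and 1.63 in WT. Antisense small RNA at rde-4 and age-1 themselves was at most 4.17 and 5.49 CPM in any library and does not report on their alleles. Unless TMM is named, levels below are plain CPM.

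Summed over the 60 loci, age-1; rde-4 held 178 ± 26.3 CPM and age-1 7054 ± 1361 CPM, while rde-4 held 277 ± 33.5 CPM and WT 8894 ± 1940 CPM (SD, n = 3 each). This left 2.53% of the age-1 sum in the double mutant and 3.12% of the WT sum in rde-4. The loci together made up 0.676% to 1.06% of all antisense counts in WT and 0.0247% to 0.0313% in rde-4. The age-1 sum was 0.793 times the WT sum, and their libraries overlapped: 7973, 5490 and 7699 CPM in age-1 against 9359, 6764 and 10559 CPM in WT. Same-numbered libraries of these strains deviated together, and by plain CPM the sum was lower in age-1 within each of the 3 pairs, as was F43E2.6. Of 1797 rows with enough width and WT counts, 552 were also lower in age-1 in all 3 pairs. TMM factors were 1.63 in WT replicate 2 and 1.13 in age-1 replicate 2, which turns the order in that pair. The choice bounded the age-1 to WT ratio, so nothing is read from this order.

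**Figure D1:**
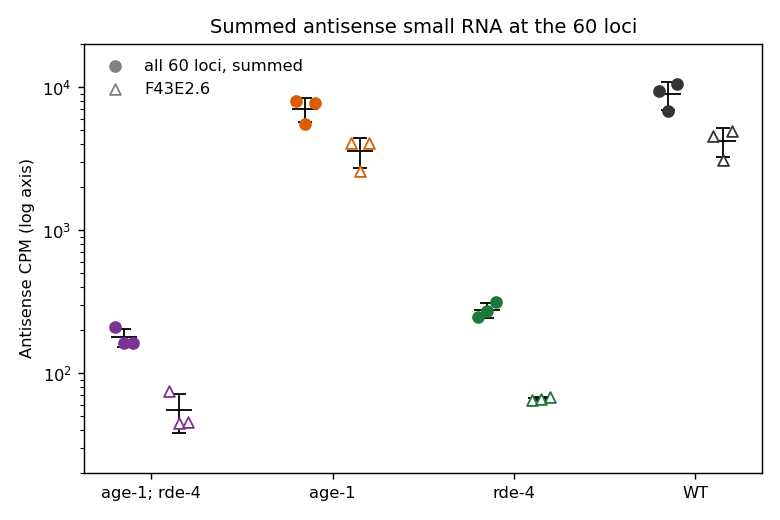
Antisense CPM (log axis) by strain, for the 60 loci summed (filled circles) and for F43E2.6 (open triangles), with 1 mark a library and the mean ± SD of 3 libraries as bars. The summed level lay between 163 and 313 CPM in the 6 libraries without RDE-4, against 5490 to 10559 CPM in the 6 libraries with it.

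One locus carried nearly as much of this sum as the other 59. F43E2.6, a protein-coding gene on chromosome II (7366455 to 7368861, WBcel235, minus strand, 5 exons), had 74.3, 44.7 and 45.1 CPM in age-1; rde-4, against 4038, 2598 and 4047 CPM in age-1. In rde-4 it had 65.1, 66.1 and 68.3 CPM, against 4542, 3108 and 4934 CPM in WT. F43E2.6 therefore held 46.0% to 48.5% of the WT sum but 21.8% to 26.4% of what was left in rde-4. Without it the sum was 124 ± 9.31 CPM in age-1; rde-4 and 3493 ± 539 CPM in age-1, and 211 ± 31.9 CPM in rde-4 and 4699 ± 990.0 CPM in WT. F43E2.6 kept 1.54% of its age-1 level in age-1; rde-4 and 1.59% of its WT level in rde-4.

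Per kilobase of locus width, F43E2.6 stood at 4315 CPM in WT, and the next was Y17D7C.3 at 969 CPM per kb. Y17D7C.3, a pseudogene near the right end of chromosome V (18720589 to 18723771), had 15.6, 21.5 and 14.7 CPM in age-1; rde-4 against 331, 315 and 341 CPM in age-1. It had 20.1, 18.8 and 25.9 CPM in rde-4 against 829, 386 and 1103 CPM in WT. Every age-1 library was below every WT library, yet WT replicate 2 was much nearer to age-1 than to the other WT libraries. The non-coding T05E12.10 and the protein-coding T05E12.8 followed at 607 and 567 CPM per kb, and they are neighbours on chromosome V, 3.03 kb apart on the same strand. T05E12.8 had 0, 0.683 and 2.34 CPM in age-1; rde-4 against 162, 64.1 and 91.0 CPM in age-1, and 2.11, 3.67 and 3.09 CPM in rde-4 against 583, 168 and 445 CPM in WT. T05E12.10 had 128, 56.0 and 117 CPM in age-1 against 437, 183 and 457 CPM in WT, and in age-1 the order of the 3 libraries was the same at both loci. Their residues differed, since T05E12.10 kept 3.72% of WT in rde-4, with 2.82, 11.4 and 25.9 CPM, and T05E12.8 kept 0.744%.

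The other loci of the 10 with the highest level per kb were Y38C1AA.7 (276 CPM per kb in WT), F52G3.8 (242), msrp-5 (187), F17E9.5 (187), msrp-2 (186) and Y59H11AR.6 (186). Y38C1AA.7, on the left arm of chromosome IV, had 9.99, 4.78 and 6.35 CPM in age-1; rde-4 against 279, 160.4 and 172 CPM in age-1. In rde-4 it had 10.9, 7.35 and 8.49 CPM against 129, 212 and 155 CPM in WT, and its age-1 and WT libraries overlapped. F52G3.8 on X had 49.7, 32.9 and 27 CPM in age-1 against 199.6, 81.3 and 130.3 CPM in WT, with no overlap. The median locus had 45.3 CPM per kb in WT and the lowest, C18D4.4, had 12.3.

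The age-1 to WT ratio, which the choice of loci bounded above and not below, had a median of 0.880 and, with srh-12 left aside, ran down to 0.204 at Y116A8B.1. It was under 0.5 at 14 loci, between 0.5 and 1 at 22 loci, and between 1 and 1.5 at 24 loci. At 14 loci every age-1 library lay below every WT library, at 0 loci every age-1 library lay above, and at 46 the libraries overlapped. Among all 1797 rows of this width and WT level, the age-1 libraries lay all below in 9.52% and all above in 36.2%. These shares stand beside a set whose age-1 ratio was limited by choice, and nothing is read from them.

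The 3 loci with the lowest ratios after the pseudogene srh-12 were Y116A8B.1, T05E12.8 and F52G3.8, at 0.204, 0.265 and 0.266. Y116A8B.1, a protein-coding locus close to the right end of chromosome IV (17216348 to 17217399), had 24.9, 11.4 and 13.3 CPM in age-1 against 128, 33.7 and 82.2 CPM in WT. Without RDE-4 it was nearly empty, with 3 counts in all in age-1; rde-4 and 7 in rde-4. Y37E3.30 on chromosome I is not among the 4 lowest ratios and was named after its values were seen. It had 33.6, 34.0 and 34.4 CPM in age-1 against 130.2, 40.3 and 136 CPM in WT. WT replicates 1 and 3 were far above age-1 and WT replicate 2 was close to it.

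That position of WT replicate 2 was shared. In the 14 loci with a ratio under 0.5, WT replicate 2 was the lowest WT library at 13, and in the 22 loci between 0.5 and 1 it was the lowest at 18. In the 24 loci with a ratio of at least 1 it was the lowest at 4 and the highest at 11, while WT replicate 1 was the lowest at 19. These orders are by plain CPM and depend on the scaling, with TMM factors of 0.987, 1.63 and 1.47 in WT replicates 1, 2 and 3. Dividing by these factors lowers replicates 2 and 3 against replicate 1, and the orders under TMM were not counted. For the 14 lowest loci the median ratio of age-1 was 0.251 to the mean of WT replicates 1 and 3 and 0.649 to WT replicate 2 alone. For the 24 highest, these medians were 1.45 and 1.19. The groups were cut on age-1 over a WT mean that holds these WT libraries, so these counts and medians follow in part from the cut. Over all members the median ratio of WT replicate 2 to the mean of WT replicates 1 and 3 was 0.768. It was 1.47 at the 129 loci that met the other limits with an age-1 to WT ratio of at least 1.5, and 1.36 at 1580 other rows. Ratios with no library in common were also set against each other, of values that the choice had used. Across 59 loci, log2 of WT replicate 2 over WT replicate 1 went with log2 of the age-1 mean over WT replicate 3 (Pearson r = 0.82, Spearman rho = 0.82). For WT replicate 2 over replicate 3 with age-1 over WT replicate 1 the r was 0.69 (rho = 0.73), and for WT replicate 3 over replicate 1 with age-1 over WT replicate 2 it was 0.39 (rho = 0.54). The first pair of ratios had r = 0.24 (rho = 0.27) across the 129 loci with a ratio of at least 1.5, and r = 0.11 (rho = 0.19) across 1579 other rows. The choice cut the 60 and the 129 on the age-1 to WT ratio, which leaves unlike ranges. Its quartiles were 0.545 and 1.26 in the 60, 1.79 and 2.22 in the 129, and 0.607 and 1.88 in the other rows. The r of the 60 and the 129 are therefore not comparable. These are descriptions across loci, which share the same libraries and are not replicates.

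**Figure D2:**
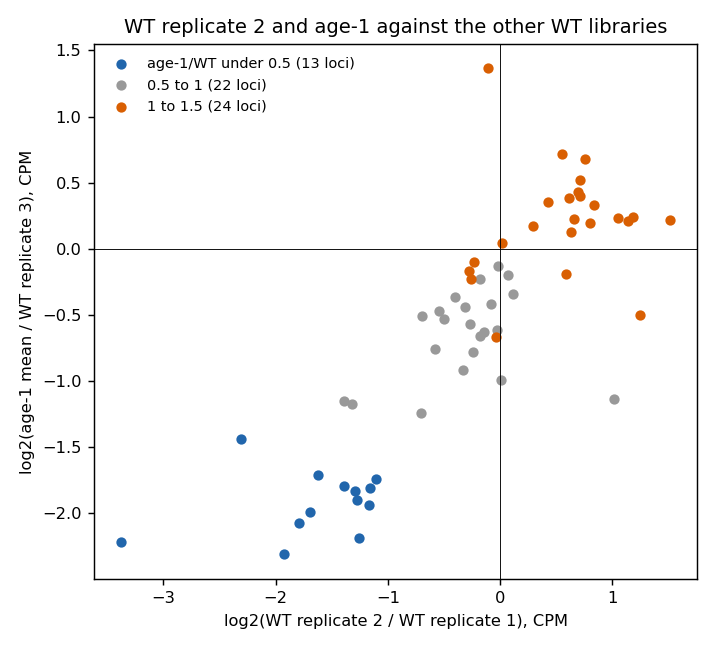
Each point is a locus (59 of 60; srh-12 had 0 counts in WT replicate 1), with log2 of the CPM ratio of WT replicate 2 to WT replicate 1 on the x axis and log2 of the ratio of the age-1 mean to WT replicate 3 on the y axis, colored by the age-1 to WT ratio. The loci with a ratio under 0.5 lie at the lower left, low in WT replicate 2 and low in age-1, and most with a ratio of at least 1 lie at the upper right.

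By plain CPM, other gene groups also differed between the WT libraries. The 10 listed ERGO-1 targets summed to 859, 632 and 806 CPM in age-1 against 1259, 755 and 1412 CPM in WT. The 31 spermatogenesis markers found in the files summed to 5126, 4480 and 5115 CPM in age-1 against 1684, 3122 and 2824 CPM in WT, so that WT replicate 1 was lowest there. The 27 markers of oocytes and the hermaphrodite germline summed to 143, 125 and 232 CPM in age-1 against 157, 274 and 292 CPM in WT. TMM factors of 0.987, 1.63 and 1.47 in WT replicates 1, 2 and 3 would lower replicates 2 and 3 against replicate 1. The sums of these lists under TMM were not taken. The part of these gene groups in the age-1 to WT ratios of the 60 loci was not tested.

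srh-12, a pseudogene of the serpentine receptor class H on X, is a member through a single library. In rde-4 it had 0, 0.816 and 2.32 CPM against 0, 58.2 and 3.03 CPM in WT, and the 3 age-1 libraries held a single count. Without WT replicate 2 it would not reach 10 CPM, and its ratio of 0.00530 is a statement about that library. F55C9.3 was the other locus at which rde-4 and WT overlapped, with 0, 0 and 5.79 CPM in rde-4 against 22.8, 2.20 and 27.7 CPM in WT.

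**Figure D3:**
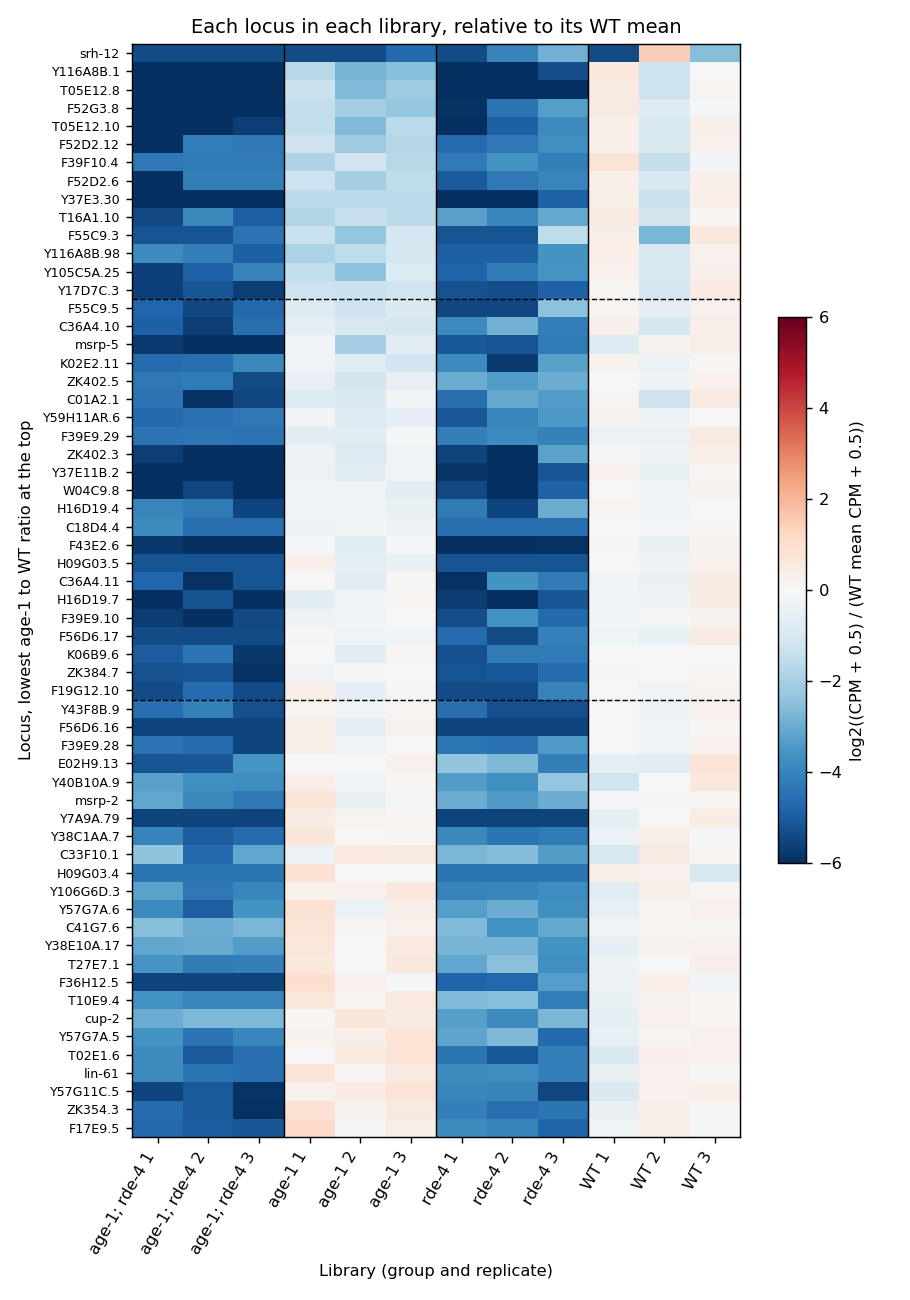
Each row is a locus and each column a library, colored by log2 of its CPM over the WT mean of that locus, with 0.5 CPM added to both. Loci run from the lowest age-1 to WT ratio at the top to the highest at the bottom, with dashed lines at ratios of 0.5 and 1. The 6 libraries without RDE-4 are blue throughout, age-1 passes over from blue to red, and WT replicate 2 is pale blue in most of the upper 14 rows.

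Few of the loci carry a gene symbol. lin-61 encodes a chromatin protein with MBT repeats that acts in vulval fate repression. It had 12.5, 8.20 and 7.35 CPM in age-1; rde-4 against 313, 196 and 267 CPM in age-1, and 12.3, 13.1 and 10.03 CPM in rde-4 against 135, 218 and 192 CPM in WT. Its age-1 to WT ratio of 1.43 is near the limit, and age-1 and WT libraries overlapped. cup-2, a Derlin family gene of endoplasmic reticulum quality control, carried less, with 20.0, 30.4 and 25.3 CPM in age-1 against 12.3, 22 and 20.1 CPM in WT. C41G7.6, named cylc-2 in RefSeq, kept more than most, 10.3% of age-1 in age-1; rde-4 and 10.8% of WT in rde-4. Both msrp genes are single-exon loci. msrp-5 had 67.6, 18.1 and 47.8 CPM in age-1 against 43, 86.8 and 97.8 CPM in WT, and WT replicate 1 was its lowest WT library. msrp-2 had 95.6, 41.2 and 53.6 CPM in age-1 against 52.4, 53.1 and 61.8 CPM in WT, where the spread in age-1 exceeded that in WT.

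At the upper end of the ratio stood F17E9.5, ZK354.3, Y57G11C.5 and lin-61. F17E9.5 had 249, 106 and 145 CPM in age-1 against 94.8, 139 and 101 CPM in WT, and age-1 replicate 1 was the highest of these 6 libraries. ZK354.3 had 91.1, 57.7 and 73.4 CPM in age-1 against 36.9, 60.4 and 51.5 CPM in WT. Y57G11C.5 had 122, 149 and 189 CPM in age-1 against 58.2, 129 and 133 CPM in WT. All of these overlapped between age-1 and WT.

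Without RDE-4, the median locus kept 2.64% of its age-1 level in age-1; rde-4 and 4.45% of its WT level in rde-4. The quartiles were 1.10% and 5.34% in age-1; rde-4 and 1.74% and 7.75% in rde-4. Under TMM scaling these medians became 6.50% and 5.41%, so which background kept more depended on the scaling. The 129 loci that met the other limits and are outside the families left out, but had an age-1 to WT ratio of at least 1.5 (called raised in age-1 here), kept a median of 3.62% in age-1; rde-4 and 8.53% in rde-4, and the 10 listed ERGO-1 targets kept 0.0737% and 0.702%. The age-1 level per locus, and with it the share left, differed by choice between these sets.

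**Figure D4:**
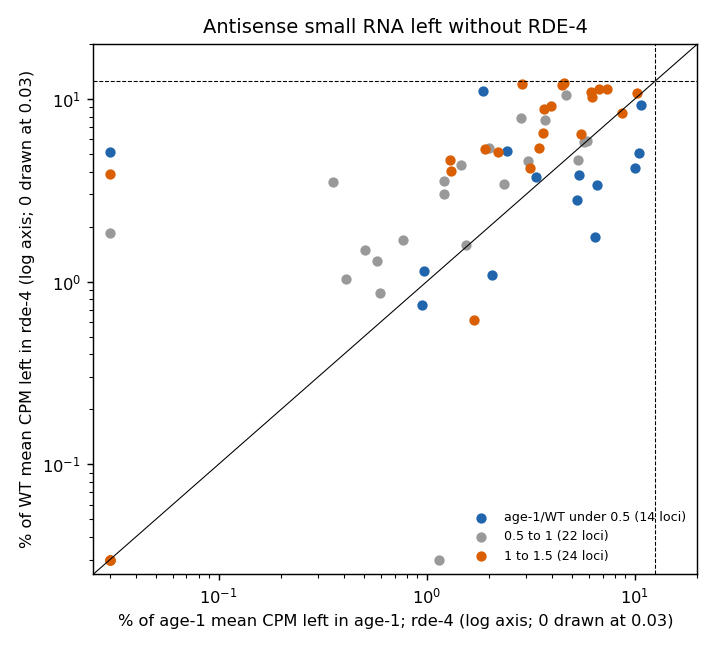
Percent of the age-1 mean left in age-1; rde-4 (x axis) against percent of the WT mean left in rde-4 (y axis), both on log axes, for the 60 loci, with loci at 0 counts drawn at 0.03 (the 4 at 0 in both strains lie on each other at the lower left) and colors by the age-1 to WT ratio. Dashed lines mark the limit of 12.5% that the choice set and the solid line equal shares; 42 loci kept less in age-1; rde-4 by plain CPM and 24 did so after TMM scaling.

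Some loci were emptied. Over the 3 libraries, 7 loci had 0 counts in age-1; rde-4 and 5 in rde-4, and 4 had 0 in both: the non-coding Y7A9A.79, the pseudogene F56D6.16, and the long non-coding RNA loci H09G03.4 and H09G03.5. Y7A9A.79 had 30.8, 25.6 and 25 CPM in age-1, at least 82.1-fold higher than age-1; rde-4, and 14.8, 22.3 and 31.1 CPM in WT, at least 59.4-fold higher than rde-4 (bounds set by a floor of 3 counts summed over the strain). For F56D6.16 these bounds were at least 69.3-fold and at least 58.8-fold higher, for H09G03.5 45.7 and 46.2, and for H09G03.4 37.7 and 26.5. All 4 are outside the protein-coding class. The other loci at 0 were F36H12.5, F56D6.17 and srh-12 in age-1; rde-4, and C18D4.4 in rde-4. At W04C9.8, a non-coding locus on chromosome I, a single count was left in age-1; rde-4 against 266 in age-1, a ratio of 255 whose 95% counting interval runs from 45.4 to 10104. Counting intervals and floors cover counting error only.

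At the other end, T10E9.4, E02H9.13 and T27E7.1 kept the most of WT in rde-4, at 12.2%, 12.1% and 12%, followed by Y38E10A.17 and Y40B10A.9, both at 11.3%. T10E9.4 had 10.9, 11.4 and 3.47 CPM in rde-4 against 53.9, 82.4 and 75.4 CPM in WT, and 5.31, 4.10 and 4.01 CPM in age-1; rde-4 against 113, 76.0 and 106 CPM in age-1. Its share left in age-1; rde-4 was 4.56%. T16A1.10 kept the most of age-1 in age-1; rde-4, at 10.7%, with 1.56, 5.46 and 2.34 CPM against 25.2, 33.4 and 28.9 CPM.

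Some members lie close together. At 25 loci another member lay within 20 kb, a count that was not taken for the other sets. The pseudogenes H16D19.4 and H16D19.7 on chromosome I are 0.102 kb apart, F39E9.10 and F39E9.28 on II 0.320 kb, F56D6.16 and F56D6.17 on IV 0.481 kb, and H09G03.4 and H09G03.5 on III 0.973 kb. On X, ZK402.3, ZK402.5 and F19G12.10 lie together, and so do F52D2.6 and F52D2.12, 1.42 kb apart on the plus strand. F52D2.6 had 30.8, 17.5 and 25.7 CPM in age-1 against 91.9, 38.1 and 92.5 CPM in WT, and F52D2.12 had 34.7, 18.1 and 24.7 CPM in age-1 against 101, 44.7 and 98.9 CPM in WT. The counts of this pair ran in parallel in every library group. The counted width of F52D2.6, 1889 bases, is larger than its Ensembl exons. A read with hits at both loci could come from either, so the 2 are uncertain as separate loci. ZK402.5 had 23.8, 15.3 and 24 CPM in age-1 against 34.0, 27.1 and 39.8 CPM in WT, with no overlap. Its neighbour ZK402.3, on the other strand, had 32.6, 22.6 and 32.8 CPM in age-1 against 37.6, 31.9 and 50.4 CPM in WT. The age-1 to WT ratios of ZK402.5 and ZK402.3 were 0.626 and 0.734, and their difference was not tested.

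The annotation of the loci differed from that of the other sets in ways the choice did not use directly. Of 59 loci found in the RefSeq table (F39E9.29 was not), 40 are protein coding, 10 are pseudogenes, 5 are ncRNA and 4 are lncRNA genes. Loci that are not protein coding thus made up 32.2%, against 2.34% of the 128 annotated loci raised in age-1 and 5.99% of 1536 other rows. 8 loci (13.6%) lie on X, against 0 of the 128 and 3.52% of the other rows. 50 loci (84.7%) lie outside the middle of 3 equal parts of their chromosome, against 55.5% and 61.9%. Loci in a cluster are not independent, gene families were taken out of the 60 and not in the same numbers out of the other sets, and these shares are given with no test. The 8 loci on X all had age-1 to WT ratios under 1. Of the 24 loci with a ratio of at least 1, 20 are protein coding.

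Antisense to a locus is sense to whatever lies on the other strand. An annotated exon lay opposite 14 of the 59 loci (23.7%), against 18.0% of the loci raised in age-1 and 23.3% of the other rows. The protein-coding genes opposite were Y106G6D.4 at Y106G6D.3, dhs-3 at T02E1.6, lbp-9 at Y40B10A.9 and Y59H11AR.4 at Y59H11AR.6. Y106G6D.3 had 165, 163 and 209 CPM in age-1 and 83.2, 172 and 152 CPM in WT, and the opposite exon covered 1023 of its bases. These counts do not tell antisense small RNA of Y106G6D.3 from sense reads of Y106G6D.4. F43E2.6, Y17D7C.3 and both T05E12 loci had no exon opposite. A miRNA gene, mir-262, lay opposite ZK384.7, which had 26.3, 28.7 and 30.2 CPM in age-1 against 28.6, 30.0 and 32.6 CPM in WT. ZK384.7 had 0.312, 0.341 and 0 CPM in age-1; rde-4, and 0.352, 0.408 and 0.772 CPM in rde-4.

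The comparison of age-1; rde-4 with rde-4 asks whether age-1 changes what is left without RDE-4. The choice set no limit on this ratio itself, but it held both strains low through other ratios in these same libraries. The fit is therefore no independent test of the 60 loci. Only 18 of the 60 loci had enough counts in these 6 libraries to be tested, and 0 passed (edgeR quasi-likelihood test, adjusted p at most 0.05), where 0.894% of all 3581 rows did (0.559% higher and 0.335% lower). At an unadjusted p of 0.05, 2 were higher and 0 lower, and DESeq2 also called 0. C41G7.6 had 5.62, 4.10 and 5.01 CPM in age-1; rde-4 against 5.28, 2.45 and 3.86 CPM in rde-4, a log2 difference of 1.18 ± 0.47 after TMM scaling (SE, edgeR adjusted p = 0.23). Y106G6D.3 was at 1.07 ± 0.45 (edgeR adjusted p = 0.26) and T02E1.6 at 0.97 ± 0.50 (0.37). T05E12.10 stood at -1.20 ± 0.69 (edgeR adjusted p = 0.42), but at -0.11 without rde-4 replicate 3, at -0.65 without age-1; rde-4 replicate 1 and at -2.16 without age-1; rde-4 replicate 3. F43E2.6 stood at 0.62 ± 0.40 (0.46) and Y38E10A.17 at 0.68 ± 0.44 (0.46). Without age-1; rde-4 replicate 1, Y106G6D.3 stood at 0.57, T02E1.6 at 0.43 and F43E2.6 at 0.21. The direction of most loci follows the scaling. By plain CPM the age-1; rde-4 mean was below the rde-4 mean at 49 loci and above it at 7. After TMM scaling it was below at 26 and above at 30. The median log2 difference over 1780 rows was 0.25 after TMM scaling and -0.79 by plain CPM, and with library totals in place of TMM the edgeR calls over all rows were 12 higher and 977 lower, against 20 higher and 12 lower. In plain CPM the libraries of age-1; rde-4 lay all below those of rde-4 at 10 loci and all above at 0, against 42.6% and 1.00% of the 1797 rows.

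Whether RDE-4 loss acted differently in the 2 backgrounds was asked by the interaction of both effects over all 12 libraries, each of which the choice had bounded. Of 59 loci tested, 0 passed, where 0.154% of 5843 rows did (0.137% positive and 0.0171% negative). The direction followed the scaling. At an unadjusted p of 0.05, 3 were positive, meaning a smaller loss in the age-1 background, and 1 was negative after TMM scaling, while with library totals 0 were positive and 10 negative, and DESeq2 called 0. Since the limits held both effects in these same libraries, the fit is no independent test of the 60 loci and nothing is read from it for single loci.

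The genes that make or bind endogenous siRNAs can carry antisense small RNA themselves. Of 45 such genes in the files, 27 could be tested in age-1; rde-4 against rde-4 and 0 passed. In age-1; rde-4 against age-1, alg-3 (log2 -1.99 ± 0.46), alg-4 (-2.55 ± 0.42) and henn-1 (-2.36 ± 0.52), which encodes the small RNA methyltransferase, were lower among 28 tested, and sid-1 and eri-6 were higher at 1.67 ± 0.45 and 0.91 ± 0.36 (SE). In rde-4 against WT, alg-3 (-1.25 ± 0.35) and alg-4 (-1.20 ± 0.38) were lower and rrf-2 higher (1.70 ± 0.52) among 32. In age-1 against WT, henn-1 was higher at 1.59 ± 0.44 and sid-1 lower at -1.26 ± 0.38. Of all rows tested, 49.1% passed in age-1; rde-4 against age-1, 26.7% in rde-4 against WT and 10.9% in age-1 against WT. Values are antisense small RNA at these genes and say nothing of their mRNA.

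Germline and tissue marker lists were read in the same way. The 31 spermatogenesis markers summed to 172 to 273 CPM in age-1; rde-4 and 4480 to 5126 CPM in age-1, and 218 to 290 CPM in rde-4 and 1684 to 3122 CPM in WT. 16 of 25 tested were lower and 1 higher in age-1; rde-4 than in age-1. In rde-4 against WT, 15 of 24 were lower and 1 higher, and in age-1 against WT 5 of 25 were higher and 0 lower. Over all tested rows, 49.1% passed in age-1; rde-4 against age-1, 26.7% in rde-4 against WT and 10.9% in age-1 against WT. Nothing is read from list counts near these shares. The oocyte and hermaphrodite germline list had 1 of 11 lower in age-1; rde-4 against age-1, 0 of 17 called in rde-4 against WT and 2 of 18 lower in age-1 against WT. The listed ERGO-1 targets were lower in 10 of 10 in age-1; rde-4 against age-1 and in rde-4 against WT, and in 3 of 10 in age-1 against WT. Somatic markers held little: 15 intestine markers summed to at most 24.04 CPM in any library, 15 of hypodermis and cuticle to 11.7, 19 of neurons to 31.0 and 14 of body wall muscle to 43.7. Of these, 0, 1, 1 and 3 could be tested in rde-4 against WT, and a single muscle marker passed, higher in rde-4. None of the 60 loci is on these lists, which for 2 of them follows from the choice. All 10 ERGO-1 targets met its ratio and WT level limits, so those of at least 300 bases were left out by name. Sperm gene families were also left out by name. The absence therefore says nothing of which pathway the 60 loci belong to.

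The limits cut through a continuous range. H09G03.4 entered with a WT mean of 10.01 CPM, while C39B5.16 at 9.71 CPM and F55A4.4 at 9.61 CPM did not. msrp-2 is 300 bases wide, while C49G7.14 (282 bases) and msrp-6 (273 bases) fell short. T10E9.4 and E02H9.13 had rde-4 to WT ratios of 0.122 and 0.121, and ZK1248.20 and F36D3.4 lay just outside at 0.1251 and 0.1283. T16A1.10 and F52D2.12 had age-1; rde-4 to age-1 ratios of 0.107 and 0.104, against 0.132 for W03D8.9 and 0.140 for Y53C10A.10 outside. F17E9.5 and ZK354.3 both stood at an age-1 to WT ratio of 1.49, and Y47D3A.31 and Y54E2A.7 outside at 1.52 and 1.54. In all, 11 members and 15 rows outside lay within 10% of the age-1 limit, so that limit separates loci that differ little. ZK1010.5 is a locus of comparable level on the other side, with 1352, 1317 and 1833 CPM in age-1 against 438, 916 and 927 CPM in WT, a ratio of 1.97. It kept 9.06, 10.6 and 7.68 CPM in age-1; rde-4 and 10.9, 12.2 and 9.26 CPM in rde-4. The set itself depended on the WT libraries. Without WT replicate 1, 99 loci met the limits, and 57 of these were among the 60. Without WT replicate 2 there were 56, of which 48 were among the 60. Without WT replicate 3 there were also 56, of which 50 were among the 60.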

How the data were processed

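The deposited values are raw antisense counts per gene, not normalized and not pooled. Per the labels and the study's methods, the authors kept inserts of 18 to 40 nt, read 50 nt, and mapped reads with Bowtie through QuasR (versions not given in the sources used here; up to 50 hits a read) to WBcel235, release WS283, counting the strand opposite to each gene. The kit captured small RNAs carrying a 5′ monophosphate. WT and age-1 stand in 2 tables each (6 repeated columns, 0 differing values). Columns of the libraries were mapped by name to the labels.

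CPM used library totals. Comparisons used edgeR 4.0.16 in R 4.3.3 (TMM, filterByExpr, two-sided quasi-likelihood F test, Benjamini-Hochberg over all rows tested, threshold 0.05), with SE from the F statistic, and DESeq2 1.42.0 as an alternative. The 2 fits over loci were tested on simulated data. Replicates are separate populations by their labels. Same-numbered rde-4 and age-1; rde-4 libraries deviated together (r = 0.29, 0.17 and 0.10), as did those of age-1 and WT (0.45, 0.35 and 0.49) and of rde-4 and WT (0.27, 0.32 and 0.51). Those of age-1; rde-4 and WT did not (-0.20, -0.10 and -0.10), nor did those of age-1; rde-4 and age-1 as a set (0.02, -0.25 and 0.14). Over all strain pairs 12 of 18 had r over 0.1. Numbers may thus pair some libraries, which the labels do not state. The main fits used no pairing, and a replicate block was run as an alternative. Annotation came from RefSeq and Ensembl 115 of the same build. No sequence was used here. The loci and gene lists (ERGO-1 targets, endogenous RNAi machinery, markers of spermatogenesis, oocyte and germline, intestine, muscle, neurons and hypodermis) were chosen with earlier results of these data known. Named loci were the 10 highest per kb, the 4 lowest and highest age-1 to WT and rde-4 to WT ratios, loci with symbols, neighbours, the 6 smallest adjusted p in age-1; rde-4 against rde-4 and those nearest a limit. The rule also named the 6 smallest of the interaction, whose values are not given because the choice of loci bounded both effects. Neighbouring pairs, T16A1.10, W04C9.8, Y37E3.30 and loci with an exon opposite were added after their values were seen.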

Additional observations from a re-analysis of the deposited data

How the results depend on the processing

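Of the 60 loci, 34 remained under TMM-scaled CPM, 38 with both RDE-4 limits at 1/16, and the set grew to 91 with both at 1/4 and to 123 with an age-1 to WT limit of 2. Leaving out single libraries gave 56 to 99 loci, with 99 without WT replicate 1. Similar totals can hide a change of members, since 48 of the 60 remained without WT replicate 2. With medians of 3 libraries in place of means, 83 loci met the limits, of which 54 were among the 60. The summed ratio of age-1; rde-4 to rde-4 was 0.643 and turned to 1.37 under TMM scaling; by leaving out single libraries it ran from 0.589 to 0.689. The summed ratio of age-1; rde-4 to age-1 was 0.0253, 0.0658 under TMM and 0.0354 without F43E2.6 (0.0228 to 0.0270 leaving out single libraries), and that of rde-4 to WT was 0.0312, and 0.0448 without F43E2.6 (0.0278 to 0.0344). The age-1 to WT sum kept its direction (0.708 to 0.881 leaving out single libraries), as did the median ratio (0.803 to 0.965). The sums without F43E2.6 or srh-12 were added after seeing the data. Against rde-4, with library totals in place of TMM, F43E2.6 turned to -0.28 and Y38E10A.17 to -0.17.

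The replicate block left the number of loci called at 0 in age-1; rde-4 against rde-4 and at 0 in the difference of the RDE-4 effect, while over all rows the calls in the first rose to 107 higher and 76 lower from 20 and 12. Calls among the 60 loci were 0 under every alternative run, where 6 to 59 of them could be tested. Over all rows, the calls in age-1; rde-4 against rde-4 were 36 higher and 33 lower with no filter and 74 higher and 8 lower with DESeq2. In the difference of the RDE-4 effect they were 8 positive and 1 negative, against 0 and 1 with RLE size factors, 2 and 62 with library totals, 17 and 7 with DESeq2 and 20 and 4 with the replicate block. Depth limits what is left without RDE-4: 23 loci had 10 or fewer counts in each of age-1; rde-4 and rde-4, and differences between these 2 strains at such counts were not tested in the filtered fit.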
